A study of Sus scrofa with 5 samples.

Results

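The genes described here control how much fat and sterol a cell makes: the nuclear receptor LXRα (NR1H3) and its partner RXRα (RXRA), the SREBP transcription factors (SREBF1, SREBF2), the proteins that hold SREBP back or carry it forward (INSIG1, INSIG2, SCAP), and MID1IP1, which acts on the enzyme of the first committed step of fatty acid synthesis. Members were all probe sets of the array that carry 1 of these 8 symbols and no other in the probe annotation. This gave 13 probe sets, with at least 1 for each of the 8 genes, out of 23999 probe sets tested. No probe set annotated with several genes named a member.

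Backfat is the subcutaneous fat over the back, and in pigs it is a main site of fatty acid synthesis. Backfat RNA of 5 female pigs was hybridized to Affymetrix porcine arrays, 1 array per animal. All 5 were crossbreds of Iberian × Landrace boars with Landrace sows, were fed the same cereal-based diet without restriction and carried no engineered allele or treatment. According to the paper, the animals were fasting when slaughtered. The H group (BC4, BC5 and BC6) and the L group (BC2 and BC3) are phenotypic extremes: H animals had more polyunsaturated fatty acids in their muscle fat, and L animals more saturated and monounsaturated ones. The groups came from the first principal component of traits of carcass quality and of muscle fatty acid composition, and sibs were avoided within a group. The group of each animal is that given by the study's table of animals, since the sample labels give only the animal's name.

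LXRα is switched on by oxidized sterols and binds DNA together with RXRα, and its targets include SREBF1, sterol exporters and enzymes that remodel membrane lipids. The SREBP proteins are made as inactive precursors in the membrane of the endoplasmic reticulum, bound to SCAP. When sterols are low, SCAP carries them to the Golgi, where they are cut and released to the nucleus. When sterols are high, the INSIG proteins hold SCAP in place. SREBF1 is known mainly for fatty acid synthesis, SREBF2 for sterol synthesis and uptake. INSIG1 is itself a target of the SREBP proteins. MID1IP1 promotes the polymerization and activity of acetyl-CoA carboxylase.

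The values are on the log2 scale, as the authors normalized and summarized them, so a difference of 1 is a doubling. The lowest value on every array is 2.17, and a probe set whose 5 values all lay within 0.5 of it is called near the floor and has no usable direction. This was so for 9286 of the 23999 probe sets. Array medians lay between 4.21 and 4.29. Group differences are given as H minus L and were tested with limma across all probe sets. Precision is limited by there being 3 arrays on one side and 2 on the other. An exact permutation test of 1 gene has 10 assignments of animals to groups, so its smallest two-sided p is 0.1.

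The tissue label was set against marker genes, because the submitters' extraction note names another organ, the liver. All 8 measured adipocyte markers were above the floor, led by FABP4, a fatty acid carrier of fat cells, at 15.4 to 15.5 on the 5 arrays. Of 10 measured hepatocyte markers 6 were near the floor, among them APOB and SERPINA1, and ALB did not exceed 4.69. APOA1 was at 11.3 to 12.6. All 4 measured lymphocyte markers were near the floor. The arrays therefore carried the marker levels of fat.

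Of the 8 members, 6 had a probe set above the floor, and NR1H3 was the only one whose H and L animals did not overlap. Among all 14713 probe sets above the floor, 10.5% had every H animal above both L animals and 8.68% every H animal below. The H mean of NR1H3 was 1.32 times its L mean. For SREBF2, SCAP, INSIG1, INSIG2 and MID1IP1 the group means lay within 0.09 of each other on the log2 scale, with intervals that differ widely in width. RXRA and SREBF1 stayed near the floor on all 5 arrays. No member probe set passed the combined threshold in limma (p-value 0.01, adjusted p 0.1, fold 1.2), and neither did any of the 23999 probe sets (0% called). Of the 23999, 762 had an unadjusted p under 0.05.

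**Figure D1:**
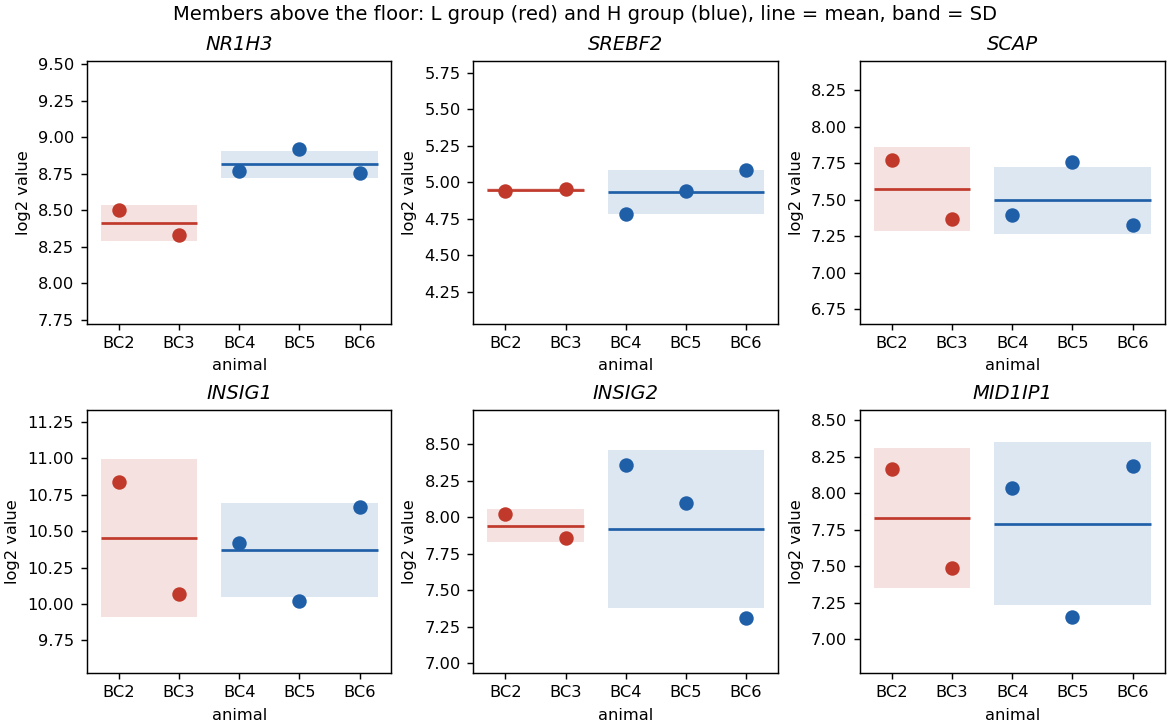
Log2 value of the 6 members above the floor (y axis, the same span in each panel) on the array of each animal (x axis), red for the 2 L animals and blue for the 3 H animals, a line marking the mean of a group and a band its SD. The 3 H animals lie above both L animals for NR1H3, and the groups overlap for the other 5 genes.

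NR1H3, which encodes the sterol-sensing receptor LXRα, was measured by 1 probe set. Its log2 values were 8.50 on BC2 and 8.33 on BC3 of the L group. In the H group they were 8.77 on BC4, 8.92 on BC5 and 8.76 on BC6. All 3 H animals lay above both L animals, and the gap between the nearest animals of the 2 groups (BC6 and BC2) was larger than the spread within either group. The H mean was 8.81 ± 0.0897 (SD, n = 3) and the L mean 8.41 ± 0.123 (SD, n = 2). The difference was 0.40 (standard error 0.0880, 95% interval 0.14 to 0.66), with an unadjusted p of 0.0157 and an adjusted p of 1 from limma, so it did not pass. The exact permutation test gave a two-sided p of 0.1, the smallest it can give here.

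NR1H3 was 1 of 6 member probe sets above the floor with all H animals on the upper side, where 10.5% of all 14713 probe sets above the floor had this order and 8.68% had the opposite one. It was also the only member with an unadjusted p under 0.05 in limma, which 4.95% of those 14713 had. In 1.67% of them the p was smaller than that of NR1H3. Its spread within groups was small, with a residual SD of 0.102 where the median over probe sets above the floor was 0.265. With no animal left out the difference ran from 0.36 to 0.40 over the alternative settings, and with each animal left out in turn from 0.31 to 0.49. The precision depended on the setting. With probe sets near the floor left out of the fit, the standard error of NR1H3 was 0.127 and its unadjusted p in limma 0.0297.

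Fewer or more cells of a type and less or more RNA per cell cannot be told apart in bulk tissue. Macrophages also use LXRα, so their markers were set beside NR1H3. MARCO was at the floor on all 5 arrays and 5 of the 6 measured macrophage markers were above it, each of the 5 highest on BC6. The log2 of the summed level of the macrophage markers was 8.82 to 11.1 in the H group and 9.89 to 9.99 in the L group. The H animals thus lay on both sides of the L animals. The summed level of the 8 adipocyte markers was 15.97 to 16.14 in H and 15.99 to 16.14 in L. FABP4, the brightest at 15.4 to 15.5, weighs most in this sum, so the sum says little about the others. ADIPOQ ran from 9.09 on BC5 to 12.2 on BC4 and LEP from 4.41 on BC5 to 10.5 on BC6. DGAT2 ran from 9.22 on BC3 to 12.2 on BC2, while CIDEA, LIPE, PNPLA2 and PPARG ranged over at most 0.51. The groups overlapped for all 8. The summed level of 9 endothelial markers was 13.3 to 14.2 in H and 13.1 to 13.6 in L, with BC5 highest and BC2 lowest. Endothelial markers had a median difference of 0.40 over 8 genes above the floor, 7 with the higher mean in H and 1 with the lower. For EDN1 and CLDN5 all H animals lay above both L animals, an order that 10.5% of all probe sets above the floor had. The part of any of these cell types in the NR1H3 difference was not tested.

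RXRA, the partner that LXRα needs to bind DNA, had 2 probe sets and both were at 2.17 on all 5 arrays. The array therefore held no usable signal for RXRA, and nothing follows from it about the level of its mRNA. The related receptors RXRB and RXRG were measured above the floor. RXRB ran from 5.14 on BC6 to 6.29 on BC3, and differed by -0.25 (standard error 0.445). RXRG ran from 2.41 on BC5 to 4.64 on BC4, and differed by -0.03 (standard error 0.925). Both had an adjusted p of 1 in limma and overlapped between the groups.

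SREBF1, the SREBP best known for fatty acid synthesis and a target of LXRα, had 1 probe set. It was at 2.17 on BC2, BC3, BC4 and BC6 and at 2.23 on BC5, so all 5 values lay near the floor and no group difference can be given.

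SREBF2, the SREBP best known for sterol synthesis, had 4 probe sets, of which 3 were near the floor. The remaining 1 was at 4.94 on BC2 and 4.96 on BC3 in the L group, and in the H group at 4.78 on BC4, 4.94 on BC5 and 5.08 on BC6. Animals of the H group lay on both sides of the L animals, which were nearly level. The difference was -0.01 (standard error 0.106, 95% interval -0.33 to 0.30, adjusted p = 1 from limma). This was the smallest difference among the 6 members above the floor, and its interval bounds any difference of this probe set more closely than for SCAP, the INSIG genes or MID1IP1.

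SCAP, the sterol sensor that escorts the SREBP proteins to the Golgi, was at 7.77 on BC2 and 7.37 on BC3 in the L group. In the H group it was at 7.40 on BC4, 7.76 on BC5 and 7.33 on BC6. One animal of each group was high, and the other 3 lay within a narrow range. The difference was -0.08 (standard error 0.218, 95% interval -0.73 to 0.58, adjusted p = 1 from limma), and it was 0.13 without BC2 and -0.28 without BC3.

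INSIG1, which retains SCAP when sterols are plentiful, had 2 probe sets and 1 of them was near the floor. The other was at 10.83 on BC2 and 10.07 on BC3 in the L group. In the H group it was at 10.42 on BC4, 10.02 on BC5 and 10.66 on BC6. BC3 and BC5, from different groups, were the 2 lowest animals, and the 2 L animals lay 0.76 apart, close to the whole range of 0.81. The difference was -0.08 (standard error 0.353, 95% interval -1.14 to 0.98, adjusted p = 1 from limma). Leaving out 1 animal moved it from -0.46 (without BC3) to 0.30 (without BC2). It also turned to 0.09 without BC5 of the H group. The direction of INSIG1 between the groups therefore depended on which animals were kept.

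INSIG2, a second retention protein that is better known for regulation other than by SREBP, was at 8.02 on BC2 and 7.86 on BC3. In the H group it was at 8.36 on BC4, 8.10 on BC5 and 7.31 on BC6. Both L animals lay between the H animals, of which BC6 was the lowest of all 5 and BC4 and BC5 the highest. The difference was -0.02 (standard error 0.387, 95% interval -1.18 to 1.14, adjusted p = 1 from limma), and it was 0.28 without BC6 and -0.24 without BC4. BC6 was also the animal with the highest summed macrophage markers (11.1) and fibroblast markers (15.5), whose part in the INSIG2 value was not tested.

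MID1IP1, the activator of acetyl-CoA carboxylase, was at 8.17 on BC2 and 7.49 on BC3 in the L group. In the H group it was at 8.04 on BC4, 7.15 on BC5 and 8.19 on BC6. As for INSIG1, BC3 and BC5 were the 2 lowest animals and BC2, BC4 and BC6 the 3 highest. The difference was -0.04 (standard error 0.461, 95% interval -1.42 to 1.35, adjusted p = 1 from limma), the widest interval among the members. It was 0.30 without BC2, 0.28 without BC5 and -0.38 without BC3. THRSP, the relative that pairs with MID1IP1, had no probe set annotated to it here.

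**Figure D2:**
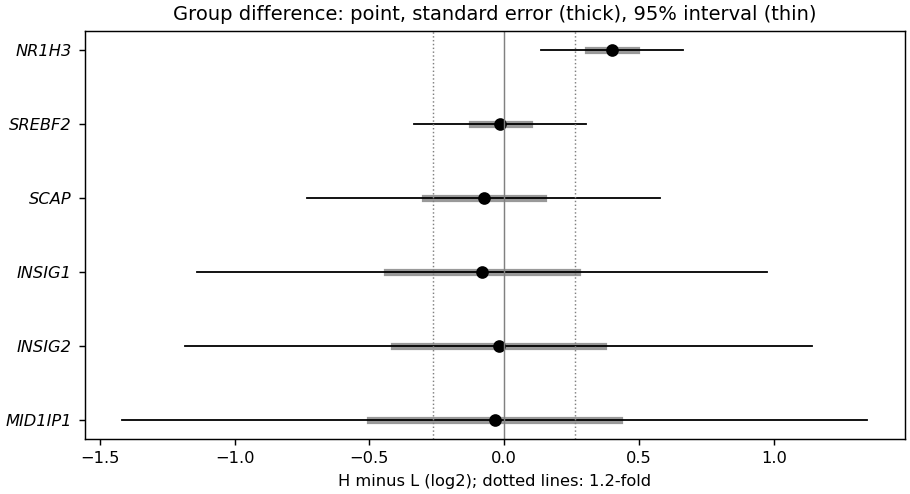
H minus L of the 6 members above the floor on the log2 scale (x axis), with the estimate as a point, its standard error as a thick line and its 95% interval from limma as a thin line, and dotted lines at a fold difference of 1.2. The interval of NR1H3 lies above 0 (0.14 to 0.66), and those of the other 5 genes span 0.

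The members differed in how far animals of the same group lay apart. The residual SD within groups was 0.102 for NR1H3, 0.123 for SREBF2 and 0.253 for SCAP. It was 0.408 for INSIG1, 0.448 for INSIG2 and 0.533 for MID1IP1, which 72.3%, 76.5% and 83.2% of the probe sets above the floor fell short of. The median difference over the 8 members, with the brightest probe set for each gene, was -0.02, and over the 5340 genes with a brightest probe set above the floor it was -0.0020, with 50.5% of them lower in H.

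**Figure D3:**
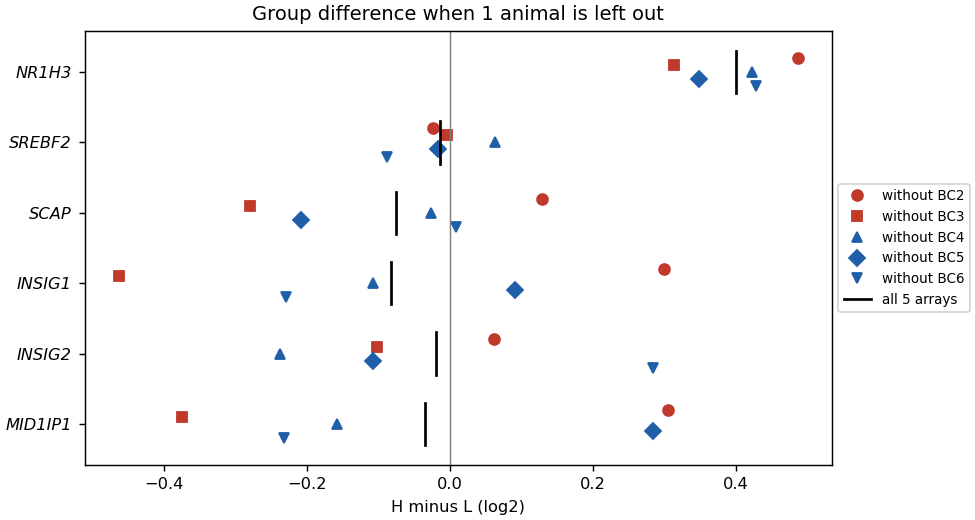
H minus L on the log2 scale (x axis) of the 6 members above the floor when each animal is left out in turn, red symbols for L animals and blue for H animals, with a black bar for all 5 arrays. NR1H3 stays between 0.31 and 0.49, while SREBF2, SCAP, INSIG1, INSIG2 and MID1IP1 each lie on both sides of 0.

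INSIG1 and MID1IP1 shared the lower 3 places in the order of the animals (BC4, BC3 and BC5 from high to low), while BC2 and BC6 changed places at the top. Likeness was measured as the root mean square distance between the 5 values of 2 genes, after each gene's mean was subtracted, over 5133 other genes above the floor on every array. MID1IP1 was at a distance of 0.167 from INSIG1, closer than all but 44 of the 5133 genes, where the median distance was 0.390. Seen from MID1IP1, INSIG1 was the 31st closest. The 5 animals are shared by all these values, so the distances are a description only.

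The genes closest to INSIG1 were ROCK1, a kinase of the cytoskeleton (distance 0.0586), GLRX2, a glutaredoxin (0.0826), and H2AFZ, a histone variant (0.0935). Those closest to MID1IP1 were DHX29 (0.0533), a helicase of translation initiation, UTP3 (0.0885) and SCMH1 (0.0974). All 6 of these genes had BC3 and BC5 as their lowest animals. INSIG2 was closest to D2HGDH, a dehydrogenase (0.0471), MGLL, the monoglyceride lipase (0.0675), and PRR15 (0.0905), each lowest on BC6. NR1H3 was closest to MAPKAPK3, a kinase (0.0644), ARPC1A, an actin regulator (0.0649), and RBM26 (0.0666), and each of these 3 was higher on all H animals than on both L animals. Such shared orders come with the choice of the closest genes and are no separate finding. SREBF2 and SCAP ranged over less than 0.5 and were not compared in this way.

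Control probe sets for RNA ends and skeletal muscle markers set apart the same 2 animals that were lowest in INSIG1 and MID1IP1. The control probe sets for the 3′ and 5′ ends of β-actin differed by 4.78 on BC3 and 4.80 on BC5, against 4.06 on BC2, 4.04 on BC4 and 3.85 on BC6. Those of GAPDH differed by 2.10 and 2.20 on BC3 and BC5, against 1.97, 1.95 and 1.89. A larger difference between the ends goes with shorter or more degraded RNA, so BC3 and BC5 stood apart from the other 3 animals in this measure too. The log2 of the summed level of 5 skeletal muscle markers was 6.97 on BC3 and 9.05 on BC5, against 5.10 on BC2, 5.36 on BC4 and 4.86 on BC6. Endothelial sums were also highest on BC5 (14.2) and BC3 (13.6), with BC4 close at 13.5. Other marker lists ordered the animals differently, with macrophage (11.1) and fibroblast (15.5) sums highest on BC6 and smooth muscle (13.9) on BC4. The part of the RNA ends or of any marker list in the values of INSIG1 and MID1IP1 was not tested.

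**Figure D4:**
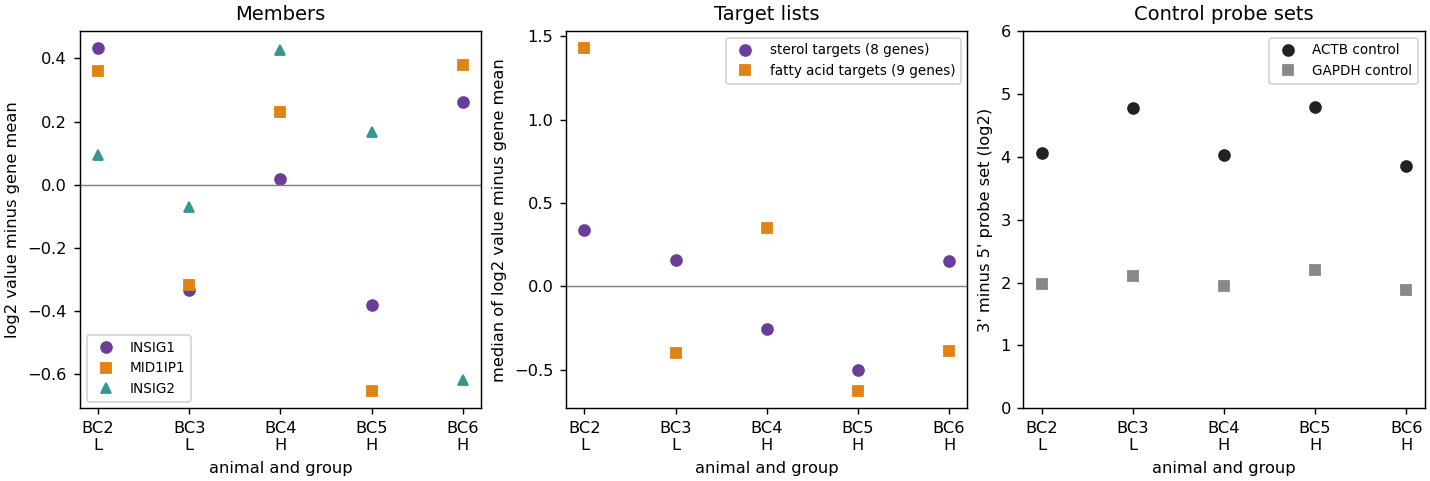
Left, log2 value minus the gene's mean for INSIG1, MID1IP1 and INSIG2 by animal. Middle, the median of the same quantity over the sterol targets of SREBF2 and the fatty acid targets of SREBF1. Right, the difference in log2 value between the 3′ and 5′ control probe sets of β-actin (ACTB) and GAPDH. INSIG1 and MID1IP1 are lowest on BC3 and BC5, the animals with the largest 3′ to 5′ differences of the controls.

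The genes around the members were taken from 7 lists of 110 genes, with 59 measured and 49 of these above the floor. None passed the combined threshold in limma. An unadjusted p under 0.05 was found for 6 of the 49 (12.2%, against 4.95% of all probe sets above the floor), 4 of them higher and 2 lower in H. The H animals all lay above the L animals for 8 of the 49 (16.3%, against 10.5%) and all below for 4 (8.16%, against 8.68%). The 49 genes were each counted by their brightest probe set, while the shares set against them cover all probe sets above the floor, so the sets are unlike. Genes within a list vary together between animals and the lists were chosen with earlier results known, so these shares are a description. When each animal was left out in turn, the direction held throughout for 3 of 6 receptors and coregulators, 4 of 6 LXR targets, 1 of 7 genes of SREBP cleavage and turnover, 2 of 6 MID1IP1 partners and 5 of 8 genes of insulin and nutrient input.

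Among LXR targets of sterol and lipid transport, 7 of 12 genes were measured and 6 were above the floor, 4 with the higher mean in H and 2 with the lower, and a median difference of 0.11. LPCAT3, an LXR target that builds polyunsaturated fatty acids into phospholipids, was at 6.90 on BC2 and 6.93 on BC3 in the L group. It was at 7.88 on BC4, 7.73 on BC5 and 7.54 on BC6 in the H group. Animals of the H group all lay above the L animals, as for NR1H3, and the H mean was 1.74 times the L mean (difference 0.80, standard error 0.121, unadjusted p = 0.00501, adjusted p = 1 from limma). A second, much dimmer probe set of LPCAT3 differed by 0.02. Leaving out 1 animal moved the brighter one from 0.71 to 0.89.

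ABCA1, the sterol exporter that is the best known LXR target, did not follow NR1H3 in the same way. It was at 8.22 on BC2 and 8.64 on BC3, and at 9.37 on BC4, 8.44 on BC5 and 8.43 on BC6, so BC4 alone stood above the L animals. APOE, the sterol-carrying apolipoprotein, differed by 0.14 (standard error 0.510) and was likewise highest on BC4. Without BC4, ABCA1 differed by 0.0075 and APOE by -0.24. MYLIP, which marks the LDL receptor for breakdown, differed by -0.07, LPL, the lipoprotein lipase, by -0.46 and PLTP, the phospholipid transfer protein, by 0.08. The adjusted p in limma was 1 for all 5 of these genes. Their groups overlapped except for PLTP, where the lowest H and the highest L value were both 3.36.

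Of the other receptors and coregulators, 7 of 14 were measured and 6 were above the floor, with a median difference of -0.14. The corepressor NCOR1, which holds LXR targets off when no sterol is bound, had 10.49 on BC2 and 10.64 on BC3, and 10.40 on BC4, 10.38 on BC5 and 10.30 on BC6. Each H animal lay below both L animals, by a difference of -0.20 (standard error 0.0630, unadjusted p = 0.0415, adjusted p = 1 from limma). The coactivators NCOA1 and NCOA2 went in opposite ways, at -0.24 and 0.21, also without overlap of the groups. NCOA1 had 5 further probe sets, of which 4 differed by -0.48 to -0.13, 1 of them without overlap, and 1 by 0.13. A much dimmer probe set of NCOA2 differed by 0.13, with overlap of the groups. PPARG, the master regulator of fat cells, differed by -0.08.

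Of the genes that cleave, retain or break down SREBP, 7 of 15 were measured and all 7 were above the floor, 4 higher and 3 lower in H, with a median of 0.02. SAR1B and SAR1A, GTPases that form the vesicles carrying SCAP and SREBP to the Golgi, differed by -0.23 and -0.08, ERLIN2, which helps to degrade sterol-regulated proteins, by -0.07, and UBE2G2, a ubiquitin-conjugating enzyme of the same route, by 0.10. ERLIN2 lay close to the floor, at 2.56 to 2.75, and exceeded the limit for near the floor on BC2 only. With the brightest probe set for each gene, UBE2G2 alone had groups that did not overlap. Its lowest H value was 5.94 (BC6) and its highest L value 5.93 (BC2). A second probe set of SAR1A, close in level to the first, lay lower in all H animals (-0.22), and a dim one of FBXW7, which marks nuclear SREBP for breakdown, lay higher (0.17). The Golgi proteases MBTPS1 and MBTPS2, which cut SREBP, had no probe set annotated to them here.

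The targets of the SREBP proteins had lower H means in most cases, none past the threshold. Of 23 symbols of sterol genes, 2 of them older names, 8 were measured, all 8 with the lower mean in H, and their median difference was -0.41. FDFT1, squalene synthase, was at 10.21 on BC2 and 10.25 on BC3, and at 10.06 on BC4, 9.84 on BC5 and 9.93 on BC6. It was the only 1 of the 8 with groups that did not overlap, at -0.29 (standard error 0.0774, unadjusted p = 0.0281, adjusted p = 1 from limma). FDPS, an earlier enzyme of the same route, differed by -0.81, but by -0.17 without BC2. MSMO1 and SC5D, later enzymes, differed by -0.50 and -0.47, with MSMO1 at -0.76 to -0.27 when 1 animal was left out. SC5D turned to 0.25 without BC2, and SQLE, squalene epoxidase, from -0.31 to 0.43 without BC3. The other 6 of the 8 had the lower H mean whichever animal was left out, and the median ran from -0.62 (without BC6) to -0.22 (without BC5). Of the 8 genes, 4 were highest on BC2 and 5 lowest on BC5. INSIG1, also a target of SREBP, was highest and lowest on the same 2 animals.

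Of 17 fatty acid genes 13 were measured and 9 were above the floor, 8 with the lower and 1 with the higher mean in H, and a median difference of -0.40. The gene with the higher mean was ACSL3, an acyl-CoA synthetase, at 6.40 on BC2 and 6.85 on BC3, and in the H group at 7.33 on BC4, 7.19 on BC5 and 7.12 on BC6. All its H animals lay above the L animals (difference 0.59, standard error 0.175, unadjusted p = 0.0363, adjusted p = 1 from limma). LPIN1, a phosphatidate phosphatase that also restrains SREBP in the nucleus, lay below in all H animals, at -0.40. A second, slightly dimmer probe set of LPIN1 differed by -0.35, with overlap of the groups. ELOVL6, the elongase of palmitate, differed by -1.20 (standard error 1.03), and by -0.49 without BC2 and -1.93 without BC4. SCD, the desaturase, differed by -0.03 (standard error 1.22), and by 1.54 without BC2 and -1.60 without BC3. Without BC2 the median of the 9 genes turned to 0.12, without BC5 it was -0.14 and without BC3 -1.77. Of the 8 genes with the lower H mean, only ELOVL6 and LPIN1 kept that direction whichever animal was left out, by their brightest probe sets. The other probe sets of ELOVL6 differed by -0.86 to -0.73. In each of them the H mean (8.44, 10.33 and 10.25) was above BC3 (7.91, 9.95 and 9.87), so the direction turned without BC2. BC2 was the highest animal for 7 of the 9 genes, and the median of the 9 after subtracting gene means was 1.43 on BC2 and -0.40 on BC3, with H animals at 0.35 (BC4), -0.63 (BC5) and -0.39 (BC6). The L animals thus lay farther apart from each other than the group means did, as for INSIG1.

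Of 12 partners of MID1IP1 and genes of the carbohydrate and AMPK branch, 7 were measured and 6 were above the floor, with a median difference of 0.03. Acetyl-CoA carboxylase itself (ACACA) was at the floor, so MID1IP1 could not be read beside its target. PRKAG2, a regulatory subunit of AMPK, differed by 0.46 with no overlap of the groups (standard error 0.320, adjusted p = 1 from limma). Without BC5 this was 0.225, and without BC2 0.644. The lowest H value of PRKAG2 was 8.80 (BC4) and the highest L value 8.79 (BC2), with BC5 at 9.56. The subunits PRKAB2, PRKAA1 and PRKAG1 differed by 0.17, -0.09 and 0.05, and their groups overlapped. PRKAB2 lay close to the floor, at 2.34 to 2.69, and exceeded the limit for near the floor on BC4 only.

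Of 20 genes of insulin and nutrient input to SREBF1, 12 were measured and 8 were above the floor, 4 higher and 4 lower in H, with a median of 0.11. NFYB, a subunit of the NF-Y factor that binds beside SREBP on its targets, was at 6.28 on BC2 and 6.36 on BC3, and at 6.56 on BC4, 6.68 on BC5 and 6.69 on BC6. PDPK1, the kinase that activates AKT, was at 9.81 on BC2 and 9.82 on BC3, and at 10.11 on BC4, 10.16 on BC5 and 9.98 on BC6. For both genes every H animal lay above both L animals. The differences were 0.32 for NFYB (unadjusted p = 0.00971) and 0.27 for PDPK1 (unadjusted p = 0.0237), and both adjusted p-values in limma were 1. A second, dimmer probe set of PDPK1 differed by 0.17 with overlap of the groups, and BC6 of the H group was its lowest animal (6.91). AKT2, the AKT kinase of insulin action in fat, differed by -0.02. The insulin receptor INSR and IRS1 were near the floor.

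**Figure D5:**
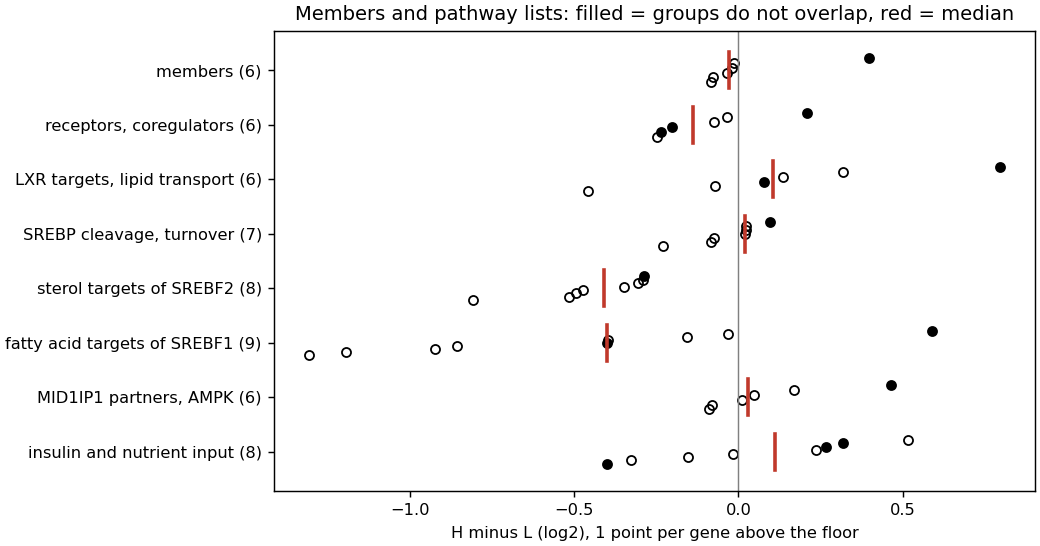
H minus L on the log2 scale (x axis) for the members and the genes of 7 lists (rows, with the number of genes above the floor), 1 point per gene, filled where the 3 H animals do not overlap the 2 L animals, with a red bar at the median. The medians are -0.41 and -0.40 for the sterol and fatty acid targets and within 0.14 of 0 for the other 5 lists, and that of the fatty acid targets turned to 0.12 without BC2.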

How the data were processed

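Backfat RNA of 3 H and 2 L pigs was measured on Affymetrix GeneChip Porcine arrays. The deposited table holds log2 values per probe set, made by the authors with background adjustment, normalization across arrays and summarization (GCRMA in the methods, RMA in the submitters' processing notes). The sample labels give animal names only, and groups follow the study's table of animals.

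From 24123 probe sets, 124 controls were left out and 23999 were tested as H minus L with limma 3.58.1 in R 4.3.3, with no covariate. Thresholds were those the paper uses for RNA-Seq. Intervals use limma's moderated standard error. Alternatives were 2 filters on dim probe sets, median centring, quantile normalization, an intensity trend, robust variance, array weights and leaving out each animal. The fit was tested on simulated data. The brightest of several probe sets stood for a gene outside the members. Named were all member probe sets and, from each list, chiefly the 3 genes with the smallest p and the 2 brightest; others were named for their role after their values were seen. The members and lists were chosen with earlier results of these data known. Smooth muscle markers (5 of 5 measured with the higher mean in H, median 0.32) and the markers given in the text were set beside the results. P-values measure the spread between these 5 animals. RNA-Seq reads were not analysed here.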

Additional observations from a re-analysis of the deposited data

How the results depend on the processing

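No member probe set passed the combined threshold in limma under any alternative run, whether all 5 animals were kept or 1 was left out, and with all 5 kept 1 (NR1H3) had an unadjusted p under 0.05. Over all probe sets, 0 passed with all 5 animals, 0 to 286 passed with 1 animal left out, with 160 without L replicate 2 and 286 without L replicate 3, and 762 had an unadjusted p under 0.05. A lone L array is then assumed to vary like the H arrays. NR1H3 kept its direction in all alternatives. The other members turned direction as follows, each far from the threshold, and beyond the smaller number of arrays the cause was not tested. With array weights, INSIG2 was at 0.0782 and MID1IP1 at 0.0878. Without L replicate 2, INSIG1 was at 0.30, INSIG2 at 0.06, SCAP at 0.13 and MID1IP1 at 0.30. SREBF2 was at 0.062 without H replicate 4. Without H replicate 5, INSIG1 was at 0.09 and MID1IP1 at 0.28, and without H replicate 6, INSIG2 was at 0.28 and SCAP at 0.0082. Leaving out each animal moved SREBF2 from -0.0885 to 0.062, INSIG1 from -0.46 to 0.30, INSIG2 from -0.24 to 0.28, SCAP from -0.28 to 0.13 and MID1IP1 from -0.38 to 0.30. The median over the members ran from -0.06 to 0.09, and was -0.03 over the members above the floor only, an alternative chosen after the data were seen, as was leaving out each animal for the pathway lists. No paired analysis was run because the labels give no pairing of H with L animals. Kinship between animals of different groups was not taken into account. Probe sets near the floor hold no signal over background, which leaves RXRA and SREBF1 without a comparison.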
